A study of Mus musculus with 20 samples.

Results

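The colony stimulating factors and their receptors were followed in the adipose tissue of mice that had lost α4 in adipocytes. The 8 genes were taken by symbol from the 25219 genes of the expression table: the ligands Csf1, Csf2 and Csf3 and the receptor genes Csf1r, Csf2ra, Csf2rb, Csf2rb2 and Csf3r. All 8 were found. Csf1 and the 5 receptor genes passed the filter on low counts in both groups of each depot, whereas Csf2 and Csf3, with at most 3 counts in any Control library, passed it through their Ai-α4KO counts. RNA of inguinal white adipose tissue (iWAT) and brown adipose tissue (BAT) of male mice had been sequenced in 4 groups of 5 libraries, 20 in all. Ai-α4KO mice carried floxed alleles of Igbp1, the gene that encodes the phosphatase binding protein α4, and a tamoxifen-inducible Cre driven by the Adiponectin promoter, so that recombination was directed to adipocytes and not to the other cells of the depot. Control mice, which the labels call WT, carried the floxed alleles without Cre and were also given tamoxifen. Tissue was collected 1 week after recombination. The labels do not say whether the same mice gave both depots, nor that each library came from a separate animal, so the p-values measure the spread between these libraries.

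The colony stimulating factors are secreted proteins that control the production, survival and activation of myeloid cells. Csf1 (M-CSF) is made by stromal cells, adipocytes and macrophages and signals through Csf1r, a receptor tyrosine kinase of monocytes and macrophages that also binds interleukin 34. Csf2 (GM-CSF) signals through a ligand-binding chain, Csf2ra, and a shared signalling chain, Csf2rb, which also serves the receptors of interleukin 3 and interleukin 5; Csf2rb2 is a mouse paralog of Csf2rb that serves interleukin 3. Csf3 (G-CSF) drives the production and release of neutrophils through Csf3r. Csf2 and Csf3 are typical inducible cytokines, scarce in resting tissue and switched on by inflammatory stimuli, whereas Csf1 is made at rest.

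The promoters for which a RefSeq window was at hand are shown first. Such a window was given for 5 of the 8 genes, namely Csf1, Csf2, Csf2ra, Csf2rb2 and Csf3r. The 250 bases before the annotated start are printed for 4 of them, the ligand present at rest, the ligand close to absent at rest, and the receptor chains of Csf2 and Csf3. They are on build GRCm38.p6, written 5′ to 3′ on the strand of the gene. Capitals mark matches to any of 5 motifs searched on both strands: GGNNTTTCC (NF-kB), TTGCNNAA (C/EBP), TGANTCA (AP-1), GAGGAA (PU.1) and TATAAA.
Csf1, chr3:107760470-107760719, minus strand: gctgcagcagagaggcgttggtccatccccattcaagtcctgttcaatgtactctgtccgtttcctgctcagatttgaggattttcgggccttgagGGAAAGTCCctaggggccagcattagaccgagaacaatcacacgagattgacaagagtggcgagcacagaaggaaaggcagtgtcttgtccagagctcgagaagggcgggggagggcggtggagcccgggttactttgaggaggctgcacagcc
Csf2, chr11:54249900-54250149, minus strand: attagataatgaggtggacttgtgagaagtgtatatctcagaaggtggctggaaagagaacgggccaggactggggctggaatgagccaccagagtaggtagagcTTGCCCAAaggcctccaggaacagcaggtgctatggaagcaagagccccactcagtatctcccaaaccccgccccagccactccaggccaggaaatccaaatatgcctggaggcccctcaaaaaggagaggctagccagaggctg
Csf2ra, chr19:61228419-61228668, minus strand: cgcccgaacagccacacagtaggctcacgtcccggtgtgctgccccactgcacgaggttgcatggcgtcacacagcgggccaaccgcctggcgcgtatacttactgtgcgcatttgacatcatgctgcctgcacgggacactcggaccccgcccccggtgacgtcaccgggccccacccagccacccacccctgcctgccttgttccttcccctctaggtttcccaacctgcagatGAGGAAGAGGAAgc
Csf3r, chr4:126024409-126024658, plus strand: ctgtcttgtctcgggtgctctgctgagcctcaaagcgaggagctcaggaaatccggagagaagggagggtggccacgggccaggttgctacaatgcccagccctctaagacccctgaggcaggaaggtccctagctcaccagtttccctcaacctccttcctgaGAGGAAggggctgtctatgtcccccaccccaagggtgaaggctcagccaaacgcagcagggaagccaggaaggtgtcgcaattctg
The Csf1 window held 1 NF-kB match, 154 to 146 bases before the start, and no match to the other motifs. The Csf2 window held 1 C/EBP match, 145 to 138 bases before the start. The windows of the 3 receptor chains each held the PU.1 letters: 2 adjoining copies within the last 14 bases before the start of Csf2ra, 1 copy 86 to 81 bases before that of Csf3r, and 1 copy 167 to 162 bases before that of Csf2rb2. No 2 of the motifs overlapped in these windows. Of 32851 windows of the same length in the RefSeq set, 4.93% held the NF-kB letters, 9.56% the C/EBP letters, 6.75% the AP-1 letters, 23.3% the PU.1 letters and 12.4% TATAAA. These matches describe letters and not bound sites.

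The libraries held between 24023371 and 50384446 gene counts each. Igbp1 was lower in every Ai-α4KO library than in every Control library of its depot, with a mean of 10.8 against 67.2 CPM in iWAT and of 17 against 93.9 CPM in BAT. CPM values are counts scaled by TMM-normalized library sizes, set over all 20 libraries. The adipocyte markers Adipoq, Plin1 and Pparg were present in every group and were lower in Ai-α4KO tissue of both depots. Control iWAT libraries 1 and 4 stood apart by their B cell markers, with summed levels of 431.1 and 171.4 CPM against 4.53 to 11.7 CPM in the other iWAT libraries. Control iWAT library 4 and Ai-α4KO iWAT library 1 held 5856 and 4498 CPM of skeletal muscle markers against at most 181.3 CPM in the other iWAT libraries. In BAT, skeletal muscle markers summed to 773 to 7875 CPM in Control and to 10885 to 34160 CPM in Ai-α4KO libraries. Since the samples are whole tissue, fewer or more cells of a type and less or more RNA per cell cannot be told apart.

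Csf1 and the 5 receptor genes, 6 of 6, rose in Ai-α4KO iWAT, by an adjusted p below 0.01 and a fold of at least 2, where 11.3% of the 14604 genes tested rose. In BAT these 6 rose as well, where 18.2% of 14344 genes did. Csf2 and Csf3 entered the test through the group where they were high, had to be higher there, and are not counted. Each of the 6 genes was higher in every Ai-α4KO library than in every Control library of the same depot, a separation that 20.7% of all genes showed in iWAT and 24.7% in BAT. The median log2 difference of the 6 genes was 1.71 in iWAT and 2.75 in BAT, against 0.015 and -0.032 over all genes tested. Without Control iWAT libraries 1 and 4, and likewise with upper-quartile normalization, Csf1 and Csf1r were just short of 2-fold in iWAT.

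**Figure D1:**
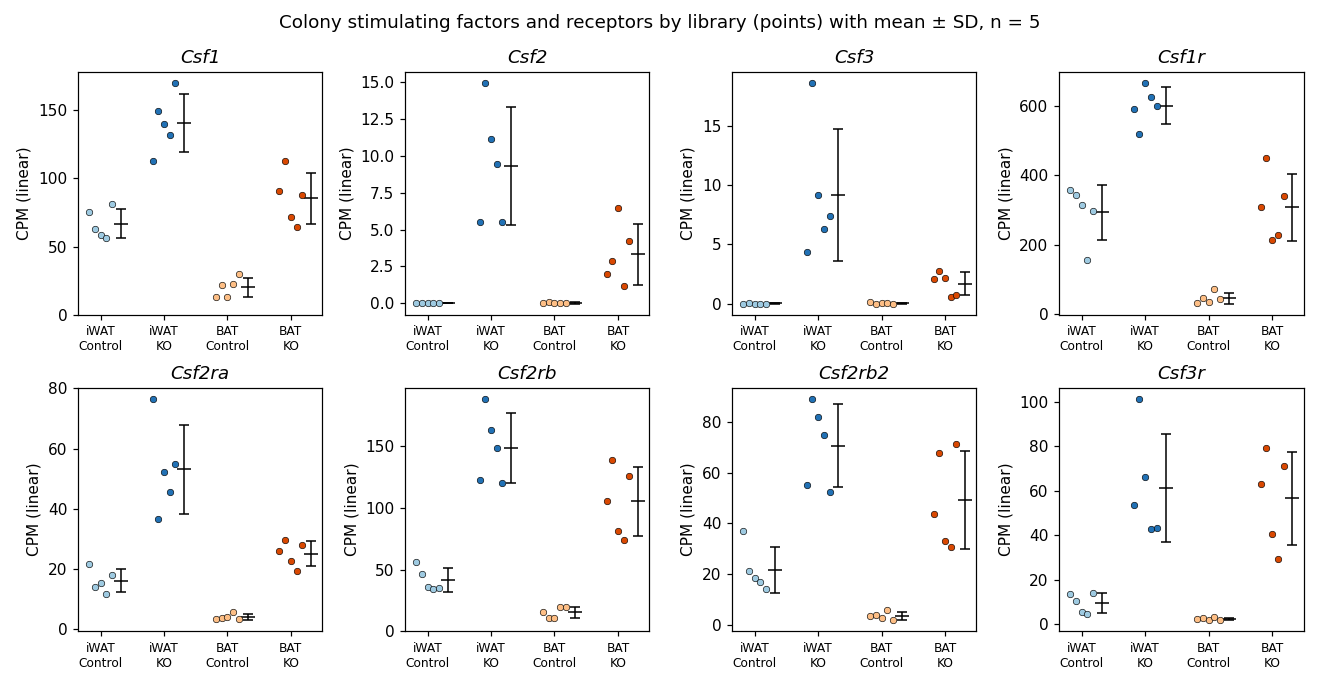
CPM (linear axes) of the 8 genes in each library, with 1 panel per gene, 1 point per library, and the group mean with its SD (n = 5) beside the points. In every panel the Ai-α4KO points (labelled KO) lie above the Control points of the same depot, and Csf2 and Csf3 lie at or close to 0 in Control tissue.

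Csf2 was close to absent in Control tissue and was detected in every Ai-α4KO library. Its counts were 2, 1, 0, 0 and 1 in the Control iWAT libraries 1 to 5 and 193, 656, 425, 526 and 212 in Ai-α4KO iWAT. In BAT they were 0, 3, 0, 0 and 0 in Control and 74, 108, 152, 36 and 120 in Ai-α4KO. No Control library exceeded 3 counts, which was taken as the floor per library, so a fold change can only be given as a lower bound against that floor. Against it, Csf2 of Ai-α4KO iWAT was at least 105-fold higher and that of Ai-α4KO BAT at least 27.2-fold higher. No p is given, since the gene entered the test through the group where it was high. The floor covers counting error only. Mean levels reached 9.31 ± 4.0 CPM in iWAT and 3.34 ± 2.07 CPM in BAT (SD, n = 5 each).

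Csf3 followed the same pattern. It had 0, 2, 0, 0 and 0 counts in Control iWAT and 154, 819, 351, 352 and 286 in Ai-α4KO iWAT, where library 2 was the highest at 18.7 CPM and the others lay between 4.40 and 9.22 CPM. Control BAT had 2, 0, 1, 1 and 0 counts and Ai-α4KO BAT 76, 104, 52, 18 and 20. Against the same floor the bound was at least 104-fold for iWAT and 13.5-fold for BAT, both higher in Ai-α4KO tissue. Ai-α4KO BAT libraries 4 and 5, at 0.579 and 0.703 CPM, were lower than the other Ai-α4KO BAT libraries, which lay between 2.06 and 2.78 CPM, and still above every Control library.

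Csf1, the ligand of Csf1r, was present in every library and rose least of the ligands. Control iWAT libraries held 75.1, 63.3, 58.2, 56.5 and 81.3 CPM and Ai-α4KO iWAT libraries 112, 150, 140, 132 and 170 CPM. This was a log2 difference of 1.07 (SE 0.14, adjusted p = 7.93e-05), which is close to the 2-fold limit. In BAT the levels were 13.3, 21.5, 12.8, 22.9 and 29.7 CPM in Control and 90.9, 113, 71.8, 64.2 and 88.1 CPM in Ai-α4KO libraries, a log2 difference of 2.05 (SE 0.24, adjusted p = 1.65e-05). Without Control iWAT library 3 the difference in iWAT was 0.97, and without Ai-α4KO iWAT library 5 it was 0.997, in each case just short of 2-fold with the adjusted p still below 0.01.

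Csf1r was the most highly expressed member and rose by different amounts in the depots. In iWAT it stood at 358, 342, 313, 156 and 296 CPM in Control and at 592, 520, 667, 628 and 601 CPM in Ai-α4KO libraries. Control iWAT library 4, which also carried B cell and skeletal muscle markers, was the lowest of its group. The log2 difference was 1.03 (SE 0.20, adjusted p = 0.00102). It fell to 0.87 without Control iWAT library 4 and to 0.998 without Ai-α4KO iWAT library 3, both just short of 2-fold with the adjusted p below 0.01. In BAT, Csf1r rose from 30.8, 46, 34.2, 71.6 and 41.6 CPM to 308, 450, 213, 227 and 339 CPM, a log2 difference of 2.74 (SE 0.27, adjusted p = 3.79e-06).

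The chains of the Csf2 receptor rose together. Csf2ra, the ligand-binding chain, went from 21.6, 14, 15.3, 11.7 and 17.9 CPM in Control iWAT to 76.4, 36.7, 52.1, 45.5 and 54.8 CPM, a log2 difference of 1.71 (SE 0.21, adjusted p = 5.76e-05). Its BAT levels were 3.32, 3.83, 4.17, 5.71 and 3.34 CPM in Control and 26, 29.7, 22.5, 19.4 and 27.9 CPM in Ai-α4KO libraries, a log2 difference of 2.58 (SE 0.19, adjusted p = 3.86e-07). Csf2rb, the shared signalling chain, rose from between 34 and 56.2 CPM to between 120 and 189 CPM in iWAT (log2 difference 1.84, SE 0.18, adjusted p = 1.28e-05). The Csf2rb levels in BAT went from between 10.8 and 19.6 CPM to between 74.0 and 139 CPM (log2 difference 2.76, SE 0.24, adjusted p = 1.36e-06). The groups did not overlap for either chain.

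Csf2rb2, the paralog of Csf2rb, rose by a log2 difference of 1.70 (SE 0.26, adjusted p = 0.000239) in iWAT and of 3.74 (SE 0.34, adjusted p = 1.95e-06) in BAT. Its Control BAT libraries held 3.46, 4.11, 2.67, 5.78 and 1.95 CPM and its Ai-α4KO BAT libraries 43.8, 67.5, 32.9, 30.5 and 71.2 CPM. Control iWAT ranged from 14.2 to 37.2 CPM, with library 1 the highest, and Ai-α4KO iWAT from 52.2 to 88.9 CPM. The split between these paralogs is uncertain, because the table lists 2 transcripts under both genes and 11 of the 20 counts of each were fractions. The counts of the pair added together rose by a log2 difference of 1.79 (adjusted p = 3.46e-05) in iWAT and of 3.01 (adjusted p = 8.03e-07) in BAT. Csf2rb2 made up 28.9% to 39.8% of the counts of the pair in Control iWAT and 30.3% to 33.4% in Ai-α4KO iWAT. In Control BAT its share was 9.25% to 27.4%, and in Ai-α4KO BAT 28.8% to 36.1%, so that the groups did not overlap in BAT and did in iWAT.

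Csf3r, the receptor of Csf3 and a gene of the neutrophil lineage, showed the largest fitted rise of the receptor genes in both depots. Control iWAT libraries held 13.4, 10.5, 5.3, 4.6 and 13.8 CPM and Ai-α4KO iWAT libraries 53.7, 101, 66.1, 42.6 and 43.3 CPM, a log2 difference of 2.68 (SE 0.36, adjusted p = 0.000107). Control BAT held only 2.32, 2.70, 1.90, 3.07 and 1.83 CPM, and Ai-α4KO BAT 62.9, 79.1, 40.7, 29.4 and 71.3 CPM, a log2 difference of 4.54 (SE 0.29, adjusted p = 1.69e-07). The lowest Ai-α4KO BAT library, library 4, was still above every Control library of either depot. That library also held the highest summed level of skeletal muscle markers, at 34160 CPM.

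**Figure D2:**
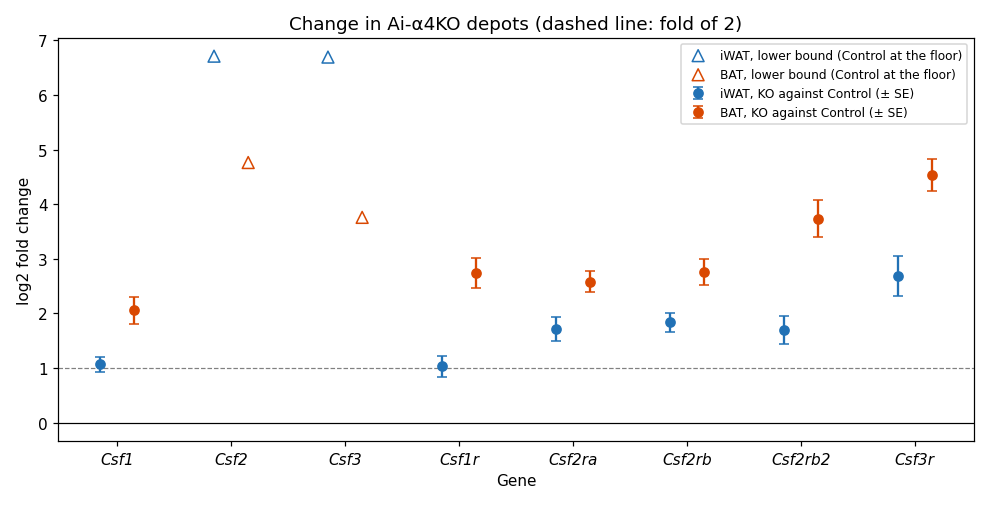
Log2 fold change of Ai-α4KO against Control for each gene in iWAT and BAT, as points with the SE of the fit; the open triangles of Csf2 and Csf3 are lower bounds. The 6 genes with a fitted value lie higher in BAT than in iWAT, and Csf3r is the highest of them in each depot. The difference between depots passed its own test for Csf1r and Csf2rb2.

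Levels between genes were compared per transcript length, as the deposited FPKM (fragments scaled to transcript length and library total). Csf1r had the highest level in every group, without overlap with any other member, with a mean of 67.9 FPKM in Control iWAT, 152 in Ai-α4KO iWAT, 9.01 in Control BAT and 73.1 in Ai-α4KO BAT. In Ai-α4KO iWAT the ligands were in the order Csf1 at 31.2, Csf2 at 8.80 and Csf3 at 6.59 FPKM, and the ranges of Csf2 (5.22 to 14.1) and Csf3 (3.23 to 13.3) overlapped. In Ai-α4KO BAT the same order was 17.8, 2.95 and 1.13 FPKM. The ratio of Csf1 to Csf1r in FPKM had a median of 0.184 in Control and in Ai-α4KO iWAT, with ranges of 0.162 to 0.317 and 0.167 to 0.252 that overlapped. The BAT medians were 0.379 for Control and 0.248 for Ai-α4KO libraries, with ranges of 0.280 to 0.626 and 0.219 to 0.296 that overlapped.

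**Figure D3:**
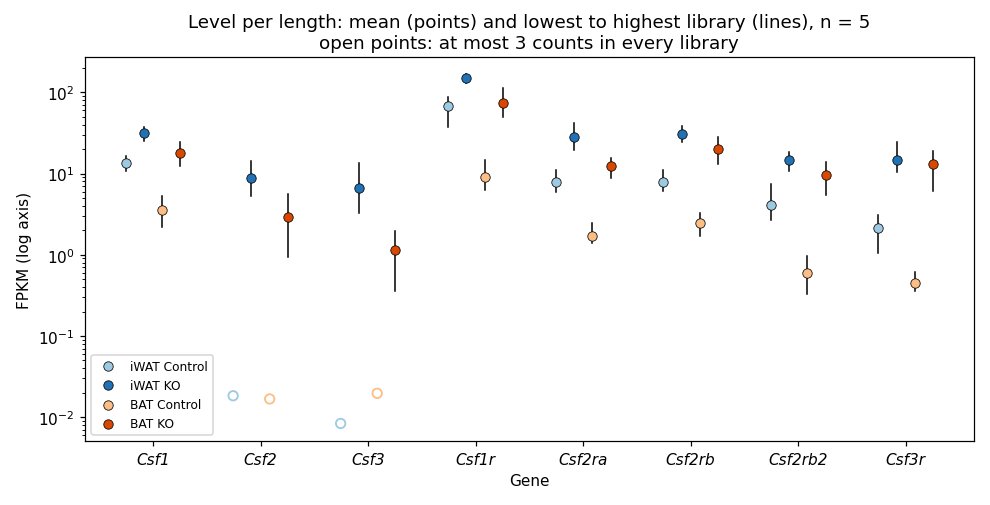
Mean level per length in FPKM (log axis) of each gene in the 4 groups, with lines from the lowest to the highest of 5 libraries; open points are groups with at most 3 counts in every library. Csf1r lies above the other genes in each group, from 9.01 FPKM in Control BAT to 152 FPKM in Ai-α4KO iWAT.

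In Control tissue the depots differed. Csf1 and the 5 receptor genes were lower in Control BAT than in Control iWAT, where 15.4% of the 15230 genes in the fit of all libraries were lower, and none of the 6 genes overlapped between the depots, a separation towards lower levels that 19.1% of all genes showed. The log2 differences were -2.71 for Csf1r, -2.58 for Csf2rb2, -2.01 for Csf3r, -1.98 for Csf2ra, -1.74 for Csf1 and -1.46 for Csf2rb, with adjusted p between 1.16e-07 and 9.83e-05. Csf2 and Csf3 were at or below the floor in both Control depots, and no fold is given between them.

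In Ai-α4KO tissue, Csf3 and Csf2ra were lower in BAT than in iWAT and passed the test, where 4.09% of all genes were lower and the median of all genes was -0.11 on the log2 scale. Csf3 differed by -2.46 (SE 0.50, adjusted p = 0.000852), with no overlap between 4.40 to 18.7 CPM in iWAT and 0.579 to 2.78 CPM in BAT. Csf2ra differed by -1.08 (SE 0.20, adjusted p = 0.000336), and its difference was short of 2-fold, at -0.98 to -0.78, when any of Control iWAT library 1, Ai-α4KO iWAT libraries 1, 3 and 5 or Ai-α4KO BAT libraries 1 and 3 was left out. Csf1r (-0.97, adjusted p = 0.00403) and Csf1 (-0.72, adjusted p = 0.00907) had smaller differences than 2-fold. The values of Csf2 (-1.48, adjusted p = 0.0153), Csf2rb (-0.50, adjusted p = 0.0658), Csf2rb2 (-0.52, adjusted p = 0.171) and Csf3r (-0.11, adjusted p = 0.797) did not pass.

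Placed in order by their means, the groups ran from Control BAT at the bottom to Ai-α4KO iWAT at the top for Csf1 and each receptor gene. By medians, Csf3r was higher in Ai-α4KO BAT, at 62.9 CPM, than in Ai-α4KO iWAT, at 53.7 CPM. Ai-α4KO BAT and Control iWAT, the middle pair, did not differ beyond their spread for Csf1r, at 213 to 450 and 156 to 358 CPM (exact permutation p = 0.87, adjusted 0.89), nor for Csf1, at 64.2 to 113 and 56.5 to 81.3 CPM (exact permutation p = 0.087, adjusted 0.097). Csf2ra and Csf2rb2 overlapped between these groups as well (exact permutation p = 0.016 and 0.024, adjusted 0.020 and 0.028). For Csf2rb and Csf3r, Ai-α4KO BAT lay above every Control iWAT library. Csf3r did not separate Ai-α4KO iWAT from Ai-α4KO BAT (exact permutation p = 0.73, adjusted 0.76). These groups also overlapped for Csf1, Csf2rb and Csf2rb2 (exact permutation p = 0.016, 0.048 and 0.10, adjusted 0.020, 0.055 and 0.11). Adjustment was over 48 pairs of groups, 6 for each gene.

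Whether the rise differed between the depots was tested as an interaction over all 20 libraries, at an adjusted p below 0.01, a test that 4.86% of 15230 genes passed. The rise of Csf1r was larger in BAT by 1.74 on the log2 scale (SE 0.34, adjusted p = 0.00318) and that of Csf2rb2 by 2.06 (SE 0.43, adjusted p = 0.00463). The Csf2rb2 call was at adjusted p = 0.01 without Control BAT library 1 and 0.0113 without Control BAT library 3, and the pair of paralogs added together differed by 1.25 (adjusted p = 0.0146). On log2(FPKM + 1) in limma the Csf2rb2 difference was 1.02 (adjusted p = 0.0622) and did not pass. Csf3r (1.89, adjusted p = 0.0125), Csf1 (1.02, adjusted p = 0.0243), Csf2ra (0.90, adjusted p = 0.0376) and Csf2rb (0.96, adjusted p = 0.0379) had larger values in BAT that did not pass. Csf3r passed with DESeq2 (adjusted p = 0.000611), with a filter of 10 counts in every library, and without any of Control iWAT library 3 (0.00722) or 4 (0.00658), Ai-α4KO iWAT library 2 (0.00439) or Ai-α4KO BAT library 4 (0.00693). Csf1 passed with DESeq2 (adjusted p = 0.00369), with the same filter and without Control BAT library 5 (0.00847), and Csf2ra without Ai-α4KO iWAT library 1 (0.00552). The interaction of Csf2 (adjusted p = 0.49) and Csf3 (adjusted p = 0.101) did not pass, and its size is not given because their Control groups were at the floor. With limma on log2(FPKM + 1) and log2(FPKM + 0.1), Csf3 had an adjusted p of 0.00329 and 0.00376 in the direction of iWAT. With both Control groups at the floor, that value restates its difference between the Ai-α4KO depots and is not read as a different rise.

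Markers of the cells known to carry these receptors rose in the same libraries, where 11.3% of all genes tested rose in iWAT and 18.2% in BAT. Of the 11 macrophage markers, 10 rose in iWAT and 11 in BAT, and their summed level went from 1505 to 2603 CPM in Control iWAT to 8543 to 11557 CPM in Ai-α4KO iWAT, and from 303 to 700 CPM to 5155 to 8589 CPM in BAT. Of the 5 monocyte markers, 4 rose in iWAT and 5 in BAT, among them Ccr2, the chemokine receptor of inflammatory monocytes, with log2 differences of 3.36 and 4.59. The monocyte markers summed to 461 to 729 CPM in Control and 1473 to 2665 CPM in Ai-α4KO iWAT, and to 45.3 to 154 and 939 to 1297 CPM in BAT. Of the neutrophil markers, 4 of 8 tested rose in iWAT and 6 of 7 in BAT, and the summed level was 15.1 to 158 CPM in Control and 106 to 435 CPM in Ai-α4KO iWAT, with Control library 1 the highest of its group. In BAT it went from between 10.6 and 35.2 CPM to between 175 and 319 CPM. The neutrophil markers that rose include Stfa2l1 in both depots and Mmp8 in BAT, which passed the filter there through their Ai-α4KO counts. The neutrophil genes S100a8 and S100a9 rose in both depots. The granule genes Ngp and Camp were below 1 CPM in every BAT library and every Ai-α4KO iWAT library. The part of cell number in the rise of the receptors was not tested.

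Relative to the macrophage markers, Csf1r was lower in Ai-α4KO tissue. The log2 CPM of Csf1r less the mean log2 CPM of the 11 markers was 1.47, 1.48, 1.41, 1.08 and 1.32 in Control iWAT and 0.59, 0.27, 0.52, 0.85 and 0.66 in Ai-α4KO iWAT, a difference of -0.77 (exact permutation p = 0.0079, adjusted over 4 comparisons 0.011). In BAT the values were 0.68 to 1.07 in Control and 0.0078 to 0.40 in Ai-α4KO libraries, a difference of -0.67 (exact permutation p = 0.0079, adjusted 0.011). The groups did not overlap in either depot, and 0.0079 is the smallest p that 5 against 5 libraries allow. Of the 11 markers, 10 had a larger log2 difference than Csf1r in iWAT and 9 in BAT. Lyz2, the lysozyme of macrophages and neutrophils, rose by 2.58 and 4.23, and Fcgr1, a high-affinity antibody receptor, by 2.96 and 4.57. Mertk, a receptor for the clearance of dead cells, rose by 1.23 in BAT (adjusted p = 0.00573) and had a log2 difference of 0.81 in iWAT, short of 2-fold.

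Csf3r was compared in the same way with the neutrophil markers, and whether it differed from them depended on which were used. Of the markers tested, 1 of 8 in iWAT and 1 of 7 in BAT had a larger log2 difference than Csf3r, in both depots Stfa2l1. It held 0.0751 to 0.839 CPM in Control iWAT and 0.0391 to 0.680 CPM in Control BAT. Because it passed the filter through its Ai-α4KO counts, the size of its difference is not given. In iWAT, S100a8 (2.59), Cxcr2 (2.44) and S100a9 (2.39) lay close to Csf3r (2.68), whereas Mmp8 (1.61), Retnlg (0.36), Ltf (-0.21) and Ngp (-3.91) had lower values that did not pass. The log2 CPM of Csf3r less the mean of the 9 markers in the table was 0.39 to 3.02 in Control iWAT and 3.01 to 3.90 in Ai-α4KO iWAT, a difference of 1.34 (exact permutation p = 0.016, adjusted 0.016), and the groups overlapped. Control iWAT library 1 was the lowest, and without it the difference was 0.91 (exact permutation p = 0.024). In BAT the difference was 1.95, but 3 of the 9 markers, Ngp, Camp and Ltf, had a mean below 1 CPM there. With the other 6 markers, a choice made after seeing the data, the BAT values were -0.55 to 1.16 in Control and 0.79 to 1.86 in Ai-α4KO libraries, a difference of 0.82 that did not pass (exact permutation p = 0.056). With the shorter list of S100a8, S100a9, Retnlg and Cxcr2 the differences were 0.66 in iWAT (exact permutation p = 0.048) and 1.06 in BAT (exact permutation p = 0.016).

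**Figure D4:**
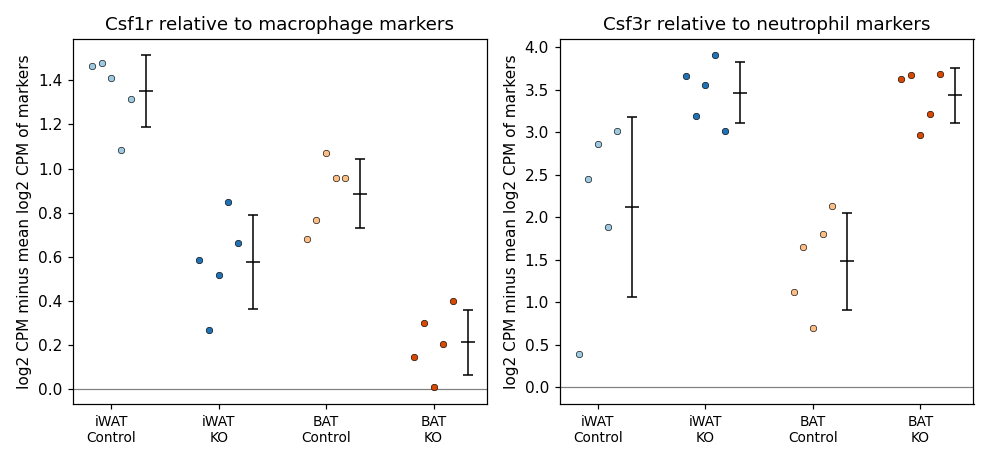
Log2 CPM of Csf1r less the mean log2 CPM of 11 macrophage markers (left) and of Csf3r less that of 9 neutrophil markers (right), by library, with group mean and SD (n = 5). The Ai-α4KO points lie below the Control points for Csf1r, by 0.77 in iWAT and 0.67 in BAT on average, and above them on average for Csf3r, where 3 of the 9 neutrophil markers had a mean below 1 CPM in BAT.

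Other ligands and chains of the same receptors gave mixed values. Il34, the second ligand of Csf1r, fell in iWAT from 11.5 to 18.8 CPM in Control to 3.58 to 8.86 CPM in Ai-α4KO libraries, a log2 difference of -1.30 (SE 0.25, adjusted p = 0.00107). In BAT its log2 difference was -0.81 (adjusted p = 0.00537), short of 2-fold. Il3ra, the interleukin 3 chain that pairs with Csf2rb and Csf2rb2, rose in BAT by 1.58 (adjusted p = 0.000203) and had a value of 0.43 in iWAT that did not pass (adjusted p = 0.239). Il3 was listed at 0 in all 20 libraries, and Il5 was below 0.1 CPM in each.

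Genes of signalling below the receptors rose in part, where 11.3% of all genes tested rose in iWAT and 18.2% in BAT. Of 15 listed, 6 rose and 1 fell in iWAT and 8 rose in BAT, with medians of 0.87 and 1.14 on the log2 scale. Tyrobp, an adaptor of myeloid receptors, rose by 2.40 in iWAT and 3.98 in BAT, and Plcg2, a phospholipase of immune cells, by 1.72 and 3.23. The kinase gene Jak2 had values of 1.0 and 0.85, each short of the 2-fold limit. Stat5a, a transcription factor activated by the Csf2 receptor, had a value of -0.68 in iWAT (adjusted p = 0.00416), short of 2-fold, and of -0.59 in BAT (adjusted p = 0.0425), and Stat5b had values of -0.30 and 0.32 that did not pass. Pik3r1, a regulatory subunit of PI3 kinase, fell in iWAT by 1.03 on the log2 scale.

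Genes that restrain cytokine receptors rose in 6 of 10 cases in each depot, where 11.3% of all genes tested rose in iWAT and 18.2% in BAT. The BAT count includes Socs1, which passed the filter there through its Ai-α4KO counts. Socs3, an inhibitor of Csf3r signalling, rose by a log2 difference of 2.64 (adjusted p = 4.73e-05) in iWAT and of 4.02 (adjusted p = 5.83e-07) in BAT, from 3.94 to 65.9 CPM on average in the latter. Cish, a target of Stat5, rose in iWAT by 1.91 (adjusted p = 0.00578) and had a value of 1.05 in BAT that did not pass (adjusted p = 0.183). Socs2, another target of Stat5, had values of 0.16 and 0.45 that did not pass. Ptpn6, the phosphatase Shp-1, rose by 1.59 and 3.74.

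Myeloid transcription factors rose in 7 of 12 cases in iWAT and 8 of 12 in BAT, where 11.3% and 18.2% of all genes tested rose. The BAT count includes Cebpe, which passed the filter there through its Ai-α4KO counts. Spi1, which encodes PU.1, a factor known to drive Csf1r, Csf2ra and Csf3r, rose by 1.86 and 3.63 on the log2 scale. Cebpe, a factor of late granulocyte differentiation, rose by 3.86 in iWAT, from 0.311 to 0.488 CPM in the Control libraries. Its BAT levels were 0 to 0.176 CPM in Control and 0.840 to 1.69 CPM in Ai-α4KO libraries, and no fold is given there. Cebpa, which is also an adipocyte factor, fell by 1.65 in iWAT and by 1.84 in BAT, and Irf4 fell by 2.29 in BAT.

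Known inducers of these cytokines rose in 6 of 11 tested in iWAT and 7 of 11 in BAT, where 11.3% and 18.2% of all genes tested rose. These counts include Il1a in both depots and Tnf in BAT, which passed the filter there through their Ai-α4KO counts. Il1b, an inducer of Csf2 and Csf3, rose from 2.68 to 83.1 CPM on average in iWAT (log2 difference 4.95, adjusted p = 1.05e-05) and from 1.44 to 67.7 CPM in BAT (log2 difference 5.53, adjusted p = 5.8e-08). Tnf rose by 2.25 in iWAT, and in BAT it was 0.137 to 0.391 CPM in Control and 3.12 to 6.43 CPM in Ai-α4KO libraries. Tlr2, a receptor for bacterial lipoproteins, rose by 2.88 and 4.0. Of the NF-kB subunit genes the list held Nfkb1 (0.70 and 0.56) and Rela (0.45 and 0.38), both short of 2-fold. Il17a had a CPM below 0.1 in every library.

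Likeness to other genes within groups is given as a description. After the group means were removed from the log2 CPM of the 20 libraries, the genes most like Csf1r were Pirb (Pearson r = 0.91), Ptprj (0.90) and the complement gene C1qb (0.90). Csf3 was most like Il6, the gene of another inducible cytokine (r = 0.89). Csf3r was most like Pram1 (r = 0.86) and Cxcr2, a chemokine receptor of neutrophils (r = 0.83), and Csf2 like Fmnl2 (r = 0.85) and Gng2 (r = 0.80). Csf2ra was most like Col16a1 (r = 0.90), Dnm2 (r = 0.90) and Col5a1 (r = 0.88), against r = 0.21 with its partner chain Csf2rb. Among the members, Csf1r and Csf2ra had r = 0.67, Csf2rb and Csf2rb2 r = 0.65, and Csf1 and Csf3 r = 0.019. The values for other genes are the highest of 15229 genes over 20 libraries in 4 groups, the libraries share their normalization, and the members' patterns were not tested against each other. For Csf2 and Csf3 the 10 Control libraries are at the floor, so that deviations there rest on 0 to 3 counts.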

How the data were processed

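RNA of 20 samples was sequenced as stranded mRNA libraries with paired reads. Per the labels, bcl2fastq 2 and STAR 2.5.3a were among the authors' tools and mm10 the genome build. The counting tool, the annotation and its normalization are not given in the sources used here. The authors deposited expected counts per gene and library, without normalization, and FPKM values. Some expected counts are fractions, which bears on the split of the paralogs Csf2rb and Csf2rb2. Library totals ranged from 24023371 to 50384446.

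Expected counts were rounded and tested in R 4.3.3 with edgeR 4.0.16 (filterByExpr, TMM, glmQLFit, glmQLFTest, Benjamini-Hochberg over all genes tested), within each depot for Ai-α4KO against Control and in a fit of all libraries for differences between depots. Calls needed a fold of at least 2 with an adjusted p below 0.01, and interactions at an adjusted p below 0.01. The prior count of log2 CPM was 2. Two-sided exact permutation tests over 252 arrangements compared single values. Groups with at most 3 counts in every library were at the floor; the bound divides the mean CPM of the Ai-α4KO group by the mean CPM that 3 counts are worth in each Control library. The scripts were tested on simulated data. No 2 libraries were identical.

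The 8 members, the lists and the tests were chosen with earlier results of these data known. Named were the members, Igbp1, genes of the fixed lists and the genes most like each member by Pearson r. Adgre1 is listed as Emr1, and Ly6g was not used here. A gene of the signalling list is not reported here by name. Alternatives were DESeq2 1.42.0, limma 3.58.1 on log2(FPKM + 1) and log2(FPKM + 0.1), other normalizations and filters, an adjusted p below 0.05, a single fit, a replicate block, a skeletal muscle covariate, paralogs added together, a shorter marker list, markers with a mean of at least 1 CPM, and left-out libraries. Same-numbered libraries did not deviate together, with correlations of -0.451 to 0.244 between groups, so the numbers were not used as pairs.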

Additional observations from a re-analysis of the deposited data

Results flagged for a closer look

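Csf2 was listed at 0 in 4 Control BAT libraries and held 3 counts in Control BAT library 2, which is 0.117 CPM. In the same way Csf3 was listed at 0 in 4 Control iWAT libraries and held 2 counts in Control iWAT library 2, which is 0.0621 CPM. Each of these libraries stood apart from the other 4 of its group by Dixon's test, and each was at or below the floor of 3 counts. The test was run on 32 sets of 5 values, and chance alone passes about 1 in 20 sets without ties. In these sets, where the other 4 values are tied at 0, any count above 0 passes, so the result carries no information beyond the counts.

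The rise of Csf1r in Ai-α4KO tissue was larger in BAT than in iWAT by 1.74 on the log2 scale, and that of Csf2rb2 by 2.06, by a test of the difference itself in edgeR. Both genes started from a lower level in Control BAT than in Control iWAT, as did Csf1, Csf2ra, Csf2rb and Csf3r, which did not pass this test.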

How the results depend on the processing

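Of Csf1 and the 5 receptor genes, the alternatives called 4 to 6 in iWAT, beside 8.88% to 13.2% of all genes tested, and 6 in BAT, beside 11.5% to 22.7%, the skeletal muscle covariate included. The lowest count, 4 in iWAT, came from upper-quartile normalization and from leaving out Control iWAT libraries 1 and 4, with Csf1 and Csf1r just short of 2-fold. Leaving out 1 library in turn gave 5 to 6 of these genes in iWAT, beside 9.87% to 11.8% of all genes tested, and 6 in BAT, beside 16.6% to 18.2%. With Csf2 and Csf3, whose direction was set by the filter, the counts were 7 to 8 and 8. The same runs gave 6 genes between the Control depots, 1 to 3 between the Ai-α4KO depots and 1 to 3 for the interaction. For these last counts the share of all genes was not worked out.

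The interaction, passed by 2 genes, was passed by 4 with DESeq2, 6 at an adjusted p below 0.05, 4 with the filter of 10 counts and 4 without Control iWAT library 4 and Ai-α4KO iWAT library 1, an alternative chosen after seeing the data. On log2(FPKM + 1) in limma Csf1r and Csf3 passed and Csf2rb2 did not, and on log2(FPKM + 0.1) Csf1r, Csf2rb2 and Csf3 did; the value of Csf3, in the direction of iWAT, restates its difference between the Ai-α4KO depots. With the replicate block it was passed by 0 genes in edgeR, 7 having an unadjusted p below 0.05, and Csf1r and Csf2rb2 had an adjusted p of 0.016 and 0.0256; the block changed no other call. Between the Ai-α4KO depots, where 2 genes were called, DESeq2 and an adjusted p below 0.05 called 3 each, with Csf2 added. Limma called 4 at either pseudocount, and library size without normalization factors 4. The filter of 10 counts called 0 of 6 tested in edgeR (3 at an unadjusted p below 0.05). Leaving out Control iWAT libraries 1 and 4, or Control iWAT library 4 and Ai-α4KO iWAT library 1, left 1 each. The Csf3r difference between the Ai-α4KO depots, from -0.15 to 0.25 with 1 library left out, changed sign, to 0.25, 0.024, 0.094 and 0.050, without Ai-α4KO iWAT libraries 2 and 3 and Ai-α4KO BAT libraries 3 and 4. The causes were not tested. For the interaction and between the Ai-α4KO depots, the share of all genes was worked out only for the main fit, at 4.86% and, for lower levels in BAT, 4.09%. The counts under the other settings therefore have no share to be read against.

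Csf1r less the macrophage markers had values of -0.84 to -0.70 (iWAT) and -0.73 to -0.62 (BAT) when 1 library was left out, and Csf3r less the neutrophil markers from 0.91 to 1.57 and from 1.76 to 2.12. With the markers at a mean of at least 1 CPM, chosen after seeing the data, Csf3r less the neutrophil markers in BAT was 0.82 (exact permutation p = 0.056) and did not pass; Csf1r in both depots and Csf3r in iWAT kept all their markers. Depth limits Csf2 and Csf3 in Control tissue, where 3 counts are the floor.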

Other observations

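Genes of other cell type lists also moved in these libraries, and their values are given without explanation. Of 6 dendritic cell markers, 5 rose and 1 fell in BAT, where 18.2% of all genes tested rose. Of these 5, Flt3, Xcr1, Clec9a and Ccr7 passed the filter there through their Ai-α4KO counts. Flt3, a growth factor receptor of dendritic cell precursors, was 0.227 to 0.705 CPM in Control and 2.25 to 5.42 CPM in Ai-α4KO BAT. In iWAT, where 11.3% of all genes tested rose, only Cd209a did (1.38, adjusted p = 0.00102). The difference between depots was not tested for these genes. Siglecf, a marker of eosinophils that some macrophages also carry, rose by 3.24 in iWAT. In BAT it was 0 to 0.494 CPM in Control and 2.12 to 10.7 CPM in Ai-α4KO libraries, and passed the filter through the latter. The eosinophil granule genes Epx and Prg2 were below 1 CPM in every library. Of the mast cell markers, Cpa3, Mcpt4 and Tpsb2 rose in BAT and Kit fell in both depots, by 1.42 in iWAT and by 2.07 in BAT. The endothelial genes Cdh5 and Tie1 fell in both depots. The fibroblast gene Dpt rose in BAT (1.08, adjusted p = 0.000566) and had a value of -0.27 in iWAT (adjusted p = 0.322). Of the T cell markers 3 of 5 rose in BAT, and in iWAT the Control libraries summed to 6.30 to 178 CPM and the Ai-α4KO libraries to 11.2 to 45.6 CPM.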
